A study of Mus musculus with 6 samples.

Results

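The 40 apoptosis genes described here are the BCL2 family, the caspases with their inhibitors, and the death receptor pathway. They were chosen by name from a fixed list, and all 40 were found among the 53465 genes of the count table by matching Ensembl identifiers to mouse symbols. Their transcripts were compared between parental (P) and axitinib-resistant (AxR) cells of 4T1, a mouse mammary carcinoma line, with 3 poly(A) RNA sequencing libraries per line. AxR cells came from metastatic lesions that arose after surgery in mice given 100 mg/kg/day of axitinib, which blocks VEGF receptor kinases. They were then kept in culture with 0.5 μM axitinib for over 2 months. P cells carry no treatment label, although the growth label shared by all 6 samples also names 0.5 μM axitinib. The labels name 1 AxR line, so drug exposure, passage through an animal and culture history cannot be told apart. The sources used here do not say whether replicates were separate cultures, so p-values measure only the spread between libraries, which may be technical.

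Apoptosis can start inside the cell or at its surface. In the mitochondrial route, BH3-only proteins sense stress and bind the anti-apoptotic BCL2 proteins or activate Bax and Bak1, which open pores in the outer mitochondrial membrane. Cytochrome c then assembles with Apaf1 to activate caspase-9, which in turn activates the executioner caspases. In the death receptor route, ligands such as FasL and TRAIL (gene Tnfsf10) recruit Fadd and caspase-8, a step that c-FLIP (gene Cflar) restrains. Inflammatory caspases cleave gasdermin D in pyroptosis, and Ripk3 with Mlkl carries out necroptosis, so the list spans several forms of cell death. The mitochondrial protein Diablo relieves caspases from the IAP proteins Xiap and Birc2.

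The libraries held between 15495260 and 17294525 estimated counts. Levels are given as CPM, the count scaled to the library size after upper quartile normalization, and a count of 3 corresponded to between 0.171 and 0.196 CPM. Differences were tested with edgeR's quasi-likelihood test, and adjusted p-values are Benjamini-Hochberg values over all 13550 genes tested, with a threshold of 0.05. Epithelial markers summed to between 1543 and 1705 CPM in P and between 2322 and 2413 CPM in AxR libraries over 7 genes, of which Krt5 had no count. The sums over 11 leukocyte markers were at most 0.751 CPM in P and 0.574 CPM in AxR libraries, with 4 of the 11 at 0 throughout, among them Tyrobp, Fcer1g and Cd3e. Fibroblast, endothelial and lung epithelial markers also stayed below 1 CPM in sum in every library (at most 0.973 CPM), with 7 of these 18 genes at 0 throughout.

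Of the 40 apoptosis genes, 34 had enough counts to be tested. In AxR cells 18 of these were higher and 6 lower, and 10 did not pass the threshold. The share called was 70.6%, beside 63.5% of all genes tested (32.8% higher and 30.8% lower), so the share called is near the background. The median log2 fold change was 0.20 over the 34 genes and 0.0058 over all genes tested. A log2 fold change of at least 1 was reached by 7 of the 34 genes in the upward direction, where 7.99% of all genes tested did so. In the downward direction the count was 0 by edgeR, also at an unadjusted p under 0.05 and with DESeq2, where 4.72% of all genes passed. AxR and P libraries did not overlap for 27 of the 34 genes, beside 68.3% of all genes. By two-sided exact permutation such a gene gives p = 0.1, which 3 libraries against 3 cannot go below. Of the 34 genes 32 reached the level of the count filter in every library of both lines. Tnfsf10 and Casp1 reached it in all libraries of AxR alone, and both are among the 18. Tnfsf10 reached it in 0 P libraries, so it could only be tested as a gene that differed. Casp1 also reached it in 2 P libraries.

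**Figure D1:**
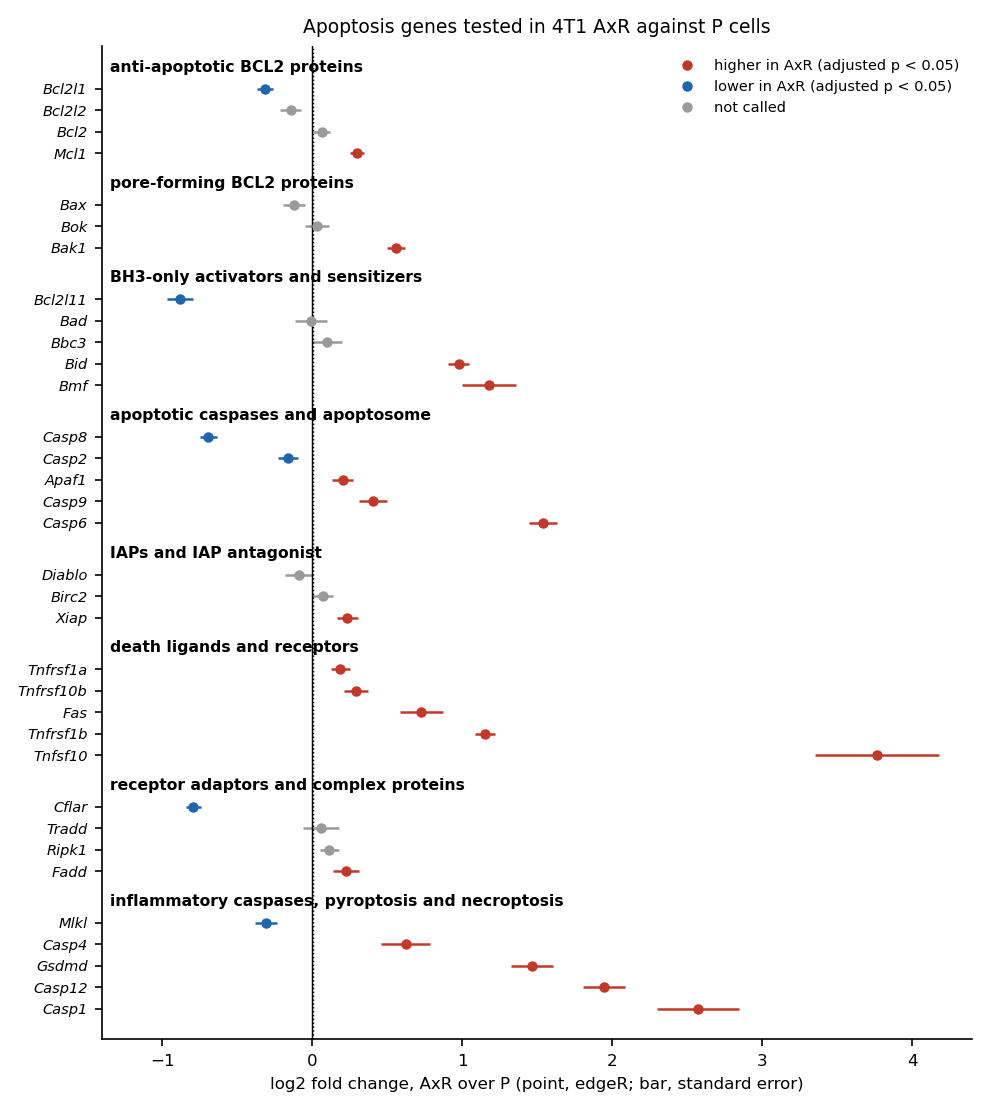
Log2 fold change of AxR over P (horizontal axis) for the 34 apoptosis genes tested, grouped by role, with points from edgeR and bars for the standard error. Red points were higher, blue points lower and grey points not called, and the dotted line is the median of all genes tested (0.0058). Death ligands and receptors lie wholly to the right of 0, from 0.19 for Tnfrsf1a to 3.77 for Tnfsf10. Tnfsf10 passed the count filter through AxR alone, and 32.8% of all genes tested were higher. Every other role group except the IAPs and the pore-forming proteins holds called genes on both sides.

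The genes with the largest differences lie on several chromosomes (GRCm38, whole gene spans from GENCODE M21). Of the genes lower in AxR cells, Bcl2l11 (ENSMUSG00000027381.16) lies at chr2:128126038-128162547 on the plus strand, Casp8 (ENSMUSG00000026029.14) lies at chr1:58795374-58847503 on the plus strand and Cflar (ENSMUSG00000026031.15) lies at chr1:58711508-58758884 on the plus strand. Of the genes higher in AxR cells, Bid (ENSMUSG00000004446.12) lies at chr6:120891930-120916853 on the minus strand, Casp6 (ENSMUSG00000027997.9) lies at chr3:129901425-129914103 on the plus strand and Tnfrsf1b (ENSMUSG00000028599.10) lies at chr4:145213463-145246870 on the minus strand. In the caspase cluster of chromosome 9, Casp1 (ENSMUSG00000025888.5) lies at chr9:5298517-5307265 on the plus strand, Casp4 (ENSMUSG00000033538.13) lies at chr9:5308828-5336783 on the plus strand and Casp12 (ENSMUSG00000025887.10) lies at chr9:5345430-5373032 on the plus strand. Counts were made per gene, so exons and isoforms are not told apart.

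Anti-apoptotic BCL2 transcripts moved in opposite directions. Mcl1, a short-lived inhibitor of Bak1 and Bim, was at 210, 212 and 227 CPM in P replicates 1 to 3 and at 265, 272 and 262 CPM in AxR replicates 1 to 3. All AxR libraries lay above all P libraries, with a log2 fold change of 0.30 (standard error, SE, 0.0486, adjusted p = 6.8e-05 by edgeR). The 0.30 of Mcl1 stood beside a median of 0.32 for all tested genes of its chromosome, 3. Bcl2l1, which encodes BCL-XL, gave 104, 107 and 105 CPM in P and 80.5, 84 and 89.4 CPM in AxR libraries. It was lower in every AxR library, by 1.24-fold (log2 fold change -0.31, SE 0.0543, adjusted p = 0.000129 by edgeR), on a chromosome with a median of -0.09. Bcl2 itself ranged from 77.1 to 83.6 CPM in P and from 82.5 to 86.5 CPM in AxR libraries, and its log2 fold change of 0.06 did not pass (adjusted p = 0.323 by edgeR). Bcl2l2, which encodes BCL-W, had a log2 fold change of -0.14 (adjusted p = 0.09 by edgeR) although its libraries did not overlap, at 38.2 to 40.1 CPM in P and 33.4 to 38.2 CPM in AxR. The fifth member, Bcl2a1b, had no count in any library, and neither did its near-identical copies Bcl2a1a and Bcl2a1d. With no count, levels of up to 0.196 CPM remain possible where the floor is highest, for counting error only.

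Scaled by merged exon length, Mcl1 was the most abundant anti-apoptotic transcript in P cells, at 63.3 CPM per kb, followed by Bcl2l1 at 22.9, Bcl2 at 8.84 and Bcl2l2 at 8.72 CPM per kb. The last pair differed in P cells by less than their spread. In AxR cells Mcl1 stood at 78.0 and Bcl2l1 at 18.5 CPM per kb. The share of Mcl1 in the summed length-scaled level of the group was 61.0% ± 1.15 (SD, n = 3) in P and 68.7% ± 0.578 (SD, n = 3) in AxR cells, and that of Bcl2l1 was 22.1% ± 0.727 and 16.3% ± 0.905. Merged exons join all annotated isoforms, so these length-scaled levels depend on the annotation as well as on the counts.

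Among the pore-forming proteins, Bak1 alone passed the test. Bak1 was at 40.7, 39 and 39.3 CPM in P and 60.2, 58.5 and 56.9 CPM in AxR libraries, without overlap. Its level was 1.48-fold higher in AxR cells (log2 fold change 0.56, SE 0.0596, adjusted p = 9.11e-07 by edgeR). Bax gave 32, 34.6 and 31 CPM in P and 29.1, 30.2 and 30.6 CPM in AxR libraries, with a log2 fold change of -0.12 (adjusted p = 0.151 by edgeR). Bok, a less studied relative of Bax and Bak1, had a log2 fold change of 0.03 (adjusted p = 0.76 by edgeR), and its libraries overlapped. Bax was the largest share of this group in P cells, at 42.2% ± 1.29 of the summed CPM per kb against 33.7% ± 1.33 for Bak1 (SD, n = 3 each). In AxR cells Bak1 was the largest, at 43.9% ± 0.297 against 34.3% ± 1.63 for Bax.

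The BH3-only genes included both strong rises and the deepest fall of the 34 genes. Bid, which is cleaved by caspase-8 and links the death receptor route to mitochondria, was at 31.4, 34.9 and 29.5 CPM in P and 61.3, 61.5 and 65.9 CPM in AxR libraries. Its 1.97-fold higher level in AxR cells (log2 fold change 0.98, SE 0.0708, adjusted p = 1.46e-08 by edgeR) held in every library. Bid overlaps Bcl2l13 on the opposite strand, and Bcl2l13 had a log2 fold change of -0.32. Whether the counting used strand is not given in the sources used here. Bmf, a sensitizer linked to detachment from the matrix, gave 4.13, 2.77 and 4.69 CPM in P and 7.62, 10.3 and 8.31 CPM in AxR libraries. Its log2 fold change was 1.18 (SE 0.179, adjusted p = 4.22e-05 by edgeR), the highest among the BH3-only genes. Bcl2l11, which encodes BIM, an activator that binds all anti-apoptotic BCL2 proteins, was at 54, 44.4 and 51.6 CPM in P libraries. It fell to 26.3, 30 and 25.1 CPM in AxR libraries, each below every P library and 1.84-fold lower on average (log2 fold change -0.88, SE 0.0872, adjusted p = 5.05e-07 by edgeR).

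The other BH3-only genes did not pass the test or could not be tested. Bbc3, which encodes the p53 target PUMA, ranged from 14.1 to 15.9 CPM in P and from 14.2 to 18 CPM in AxR libraries (log2 fold change 0.10, adjusted p = 0.408 by edgeR). Bad, whose protein is held inactive by growth factor signalling, averaged 14.1 CPM in each line, with a log2 fold change of -0.0044 and a standard error of 0.107. Bik had between 3 and 8 counts per library, and Pmaip1, which encodes the MCL1 antagonist NOXA, had 2 counts in AxR replicate 3 and none elsewhere. Hrk had 3 counts in P replicate 3 and none elsewhere. In the summed CPM per kb of the BH3-only genes, Bid made up 31.1% ± 1.71 in P and 49.0% ± 2.71 in AxR cells, while Bcl2l11 made up 21.6% ± 2.66 and 9.34% ± 0.723 (SD, n = 3 each).

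**Figure D2:**
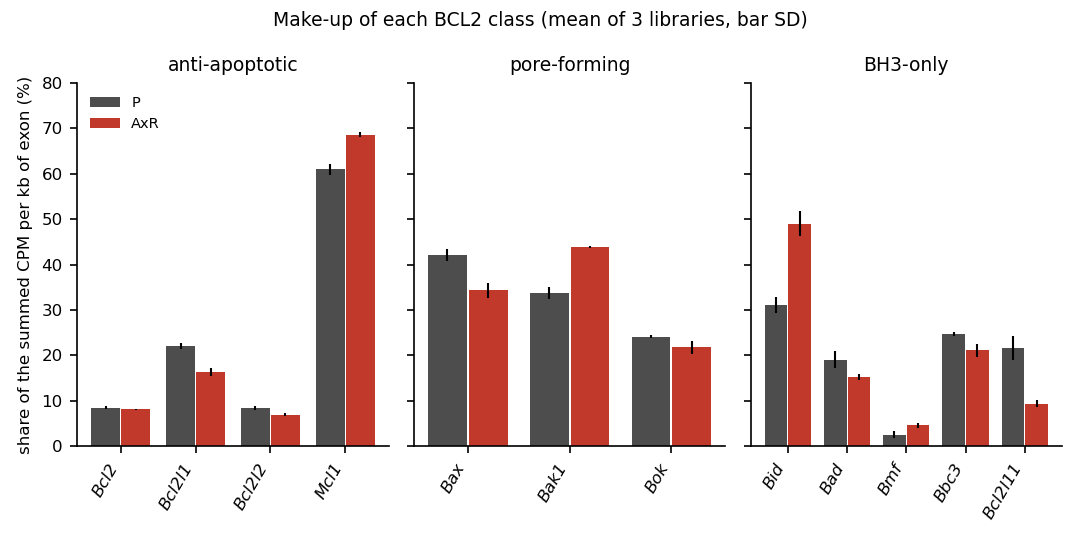
Share of each gene in the summed CPM per kb of exon of its class (vertical axis, %), with bars for the mean of 3 P (grey) or 3 AxR (red) libraries and error bars for the SD. Genes under 1% in both lines are not drawn. Bid takes 31.1% of the BH3-only class in P and 49.0% in AxR cells, Bcl2l11 21.6% and 9.34%, and Bak1 passes Bax in AxR cells.

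Ratios between an inhibitor and its effector were taken within each library, where normalization cancels. Of 9 pairs set, 7 could be computed, since Pmaip1 and Ripk3 had no count in most or all libraries. The log2 ratio of Bcl2l1 to Bax was 1.69 ± 0.0651 in P and 1.5 ± 0.0448 in AxR cells (SD, n = 3 each), and that of Mcl1 to Bak1 was 2.45 ± 0.0840 and 2.19 ± 0.0426. For both pairs the inhibitor was lower relative to the pore-forming gene in every AxR library. Bcl2 to Bax differed the other way, with 1.31 ± 0.140 in P and 1.5 ± 0.0557 in AxR cells. The largest difference was in Bcl2l1 to Bcl2l11, at 1.08 ± 0.168 in P and 1.64 ± 0.176 in AxR cells, so that BIM transcripts were scarcer relative to BCL-XL transcripts even though Bcl2l1 fell too. Cflar to Casp8 was 1.07 ± 0.0424 and 0.97 ± 0.0479, a difference of -0.10 between genes that each fell. These 5 pairs did not overlap between the lines (exact two-sided permutation p = 0.1, adjusted p = 0.14 over the 7 pairs), and with 3 libraries against 3 none could pass 0.05. Xiap to Diablo and Xiap to Casp9 overlapped, with differences of 0.32 and -0.17 (exact permutation p = 0.2 and 0.5, adjusted p = 0.233 and 0.5). Without P replicate 2 the difference was 0.10 for Bcl2 to Bax, 0.17 for Xiap to Diablo and -0.26 for Xiap to Casp9, and without P replicate 3 the last was -0.03.

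**Figure D3:**
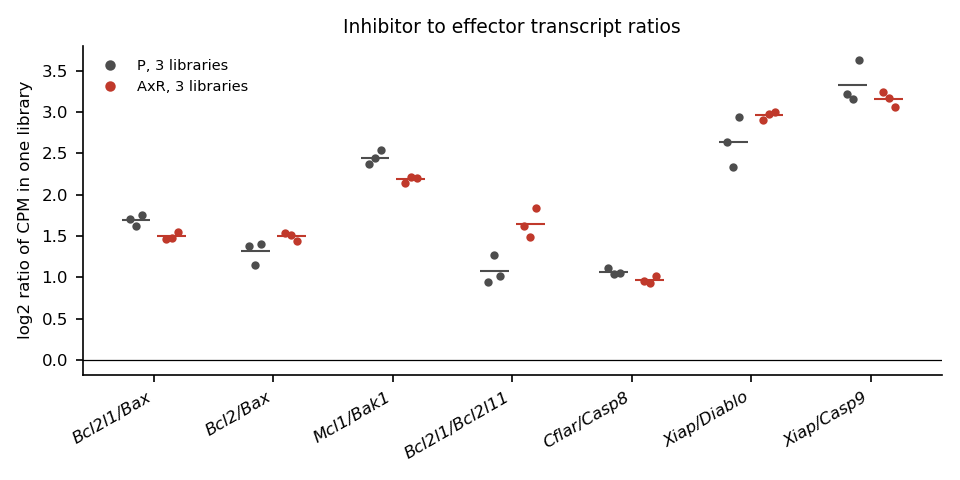
Log2 ratio of the CPM of 2 genes within a library (vertical axis) for 7 pairs of an inhibitor and an effector, with a point per library (P grey, AxR red) and a line at the mean of 3. Bcl2l1/Bcl2l11 is higher in every AxR library (means 1.64 and 1.08), Mcl1/Bak1 and Bcl2l1/Bax are lower, and the Xiap pairs overlap.

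The 4 apoptotic caspases among the 40 genes changed in both directions. Casp8, the initiator of the death receptor route, was at 81.4, 84.7 and 85 CPM in P and 51.8, 54.4 and 49.3 CPM in AxR libraries. It was 1.61-fold lower in AxR cells (log2 fold change -0.69, SE 0.0571, adjusted p = 6.02e-08 by edgeR), and no library overlapped. At 28.9 CPM per kb in P and 17.9 CPM per kb in AxR cells, Casp8 remained the most abundant of its group of 5 per length. Casp6, an executioner caspase that cleaves lamins, gave 8.69, 8.72 and 8.61 CPM in P and 27.4, 25.6 and 22.9 CPM in AxR libraries. Its 2.92-fold higher level in AxR cells (log2 fold change 1.54, SE 0.0929, adjusted p = 1.79e-09 by edgeR) stood beside a median log2 fold change of 0.32 on chromosome 3. The apoptosome genes differed less. Casp9 averaged 12.6 ± 1.26 CPM in P and 16.7 ± 0.188 CPM in AxR cells (SD, n = 3 each), with a log2 fold change of 0.41 (adjusted p = 0.00137 by edgeR). Apaf1 had a log2 fold change of 0.20 (adjusted p = 0.0181 by edgeR), beside a median of 0.25 on chromosome 10, and it missed the threshold with DESeq2 and without P replicate 1, AxR replicate 1 or AxR replicate 2. Casp2, which acts in the response to DNA and centrosome damage, had a log2 fold change of -0.16 (adjusted p = 0.0441 by edgeR), and its adjusted p lay between 0.0322 and 0.189 over the alternatives tried.

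Among the 40 genes, the IAP genes Xiap and Birc2 and their antagonist Diablo varied little. Outside the 40, Birc3, Birc5 and Birc6 had log2 fold changes of -0.39, 0.94 and 0.33 (adjusted p = 0.000421, 8.56e-06 and 5.37e-05 by edgeR). Xiap, which binds and blocks active caspases, was at 129, 112 and 140 CPM in P and 157, 151 and 141 CPM in AxR libraries, with a log2 fold change of 0.24 (SE 0.0720, adjusted p = 0.0108 by edgeR). Without P replicate 2 it was 0.16. The tested genes of its chromosome, X, also had a median of 0.24. Birc2, which encodes the ubiquitin ligase cIAP1, and Diablo had log2 fold changes of 0.07 and -0.09, and neither passed (adjusted p = 0.394 and 0.412 by edgeR).

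Each of the 5 death ligand and receptor genes tested among the 40 was higher in AxR cells, beside 32.8% of all genes tested. Tnfsf10 passed the count filter through AxR alone, and nothing is read from the count of so short a list. None of 4 tested receptors of the same superfamily outside the 40 genes, named after their values were seen, was higher. Tnfrsf21, which encodes death receptor 6, fell by 0.81 on the log2 scale (adjusted p = 1.29e-06 by edgeR), Tnfrsf12a by 0.56 (adjusted p = 4.72e-07) and Tnfrsf23 by 0.44 (adjusted p = 0.00852). Tnfrsf22 had a log2 fold change of -0.04 and did not pass (adjusted p = 0.583 by edgeR). Tnfrsf1b, which encodes TNF receptor 2, a receptor without a death domain, was at 33.7, 32.3 and 33.1 CPM in P and 69.5, 79.2 and 71.6 CPM in AxR libraries. It was 2.23-fold higher in AxR cells (log2 fold change 1.15, SE 0.0656, adjusted p = 9.74e-10 by edgeR). Fas, a death receptor, gave 9.6, 8.43 and 6 CPM in P and 12.1, 14.3 and 13.5 CPM in AxR libraries, a log2 fold change of 0.73 (SE 0.142, adjusted p = 0.000407 by edgeR). Smaller differences were seen in Tnfrsf10b, which encodes the mouse TRAIL receptor, and Tnfrsf1a, which encodes TNF receptor 1. Their log2 fold changes were 0.29 and 0.19 (adjusted p = 0.00538 and 0.0167 by edgeR), and Tnfrsf1a missed the threshold with library size only and without P replicate 3 or AxR replicate 2. Tnfrsf1a was the most abundant of the group per length, at 18.4 CPM per kb in P and 21 in AxR cells, where Tnfrsf1b reached 19.2 from 8.64 CPM per kb.

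Tnfsf10, the gene of the ligand TRAIL, had 3, 2 and 1 counts in P and 31, 26 and 29 counts in AxR libraries, which corresponds to 0.182, 0.115 and 0.0652 CPM and to 1.97, 1.66 and 1.65 CPM. The summed counts of 6 and 86 gave a ratio of 14.4, with an exact 95% interval of 6.34 to 40.2 that covers counting error only. Its log2 fold change by edgeR was 3.77 (SE 0.413, adjusted p = 1.31e-06), and even in AxR cells the level stayed low. Fasl, which encodes the Fas ligand, was without a count in all 6 libraries.

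Of the 4 adaptor and complex genes, 1 was higher, 1 was lower and 2 did not pass. Over all genes tested 32.8% were higher and 30.8% lower, and nothing is read from the count of so short a list. Cflar, the gene of c-FLIP, was at 176, 173 and 176 CPM in P and 100, 103 and 100 CPM in AxR libraries. The fall was 1.73-fold (log2 fold change -0.79, SE 0.0481, adjusted p = 1.99e-09 by edgeR), with a narrow spread in each line. Cflar and Casp8 are neighbours on chromosome 1, 36.5 kb apart, and the tested genes of that chromosome had a median log2 fold change of -0.29. Bcl2 and Bok, also on chromosome 1, had values of 0.06 and 0.03. The adaptor Fadd had a log2 fold change of 0.22 (adjusted p = 0.036 by edgeR), but this missed the threshold in 9 of 12 alternatives, with adjusted p between 0.00783 and 0.135. Tradd, the adaptor of TNF receptor 1, and the kinase Ripk1 had log2 fold changes of 0.06 and 0.11 (adjusted p = 0.691 and 0.136 by edgeR), and Ripk1 overlaps the more abundant Serpinb6a on the opposite strand.

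The inflammatory cell death genes Casp1, Casp4, Casp12 and Gsdmd were low in P cells and higher in AxR cells, beside 32.8% of all genes tested. Of 5 other tested genes of inflammasomes, pyroptosis and necroptosis, 1 was higher and 2 were lower. Casp1, the caspase of the inflammasome, had 0.425, 0.693 and 0.782 CPM in P and 3.11, 4.59 and 3.7 CPM in AxR libraries. Its P level rested on 7, 12 and 12 counts, under the filter level in P replicate 1, and the log2 fold change was 2.57 (SE 0.274, adjusted p = 9.42e-07 by edgeR). Casp12, a relative associated with the endoplasmic reticulum, was at 5.29, 4.33 and 3.26 CPM in P and 16.3, 18 and 15.5 CPM in AxR libraries, or 3.87-fold higher (log2 fold change 1.94, SE 0.141, adjusted p = 1.46e-08 by edgeR). Casp4, the mouse caspase-11 that senses bacterial lipopolysaccharide, gave 3.04, 2.94 and 2.93 CPM in P and 4.06, 4.66 and 5.01 CPM in AxR libraries (log2 fold change 0.62, SE 0.163, adjusted p = 0.00364 by edgeR). Casp1, Casp4 and Casp12 follow one another on the plus strand of chromosome 9, with gaps of 1.56 and 8.65 kb, and the tested genes of that chromosome had a median log2 fold change of -0.23. Gsdmd, the pore protein that Casp1 and Casp4 cleave, was at 3.77, 3.12 and 4.63 CPM in P and 11.1, 10.3 and 10.3 CPM in AxR libraries, 2.75-fold higher in AxR cells (log2 fold change 1.47, SE 0.142, adjusted p = 3.61e-07 by edgeR).

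The necroptosis genes showed a different pattern. Ripk3, the kinase that activates Mlkl, had no count in any library of either line. Mlkl gave 48.7, 57.3 and 52 CPM in P and 46, 41.3 and 40.7 CPM in AxR libraries, a fall of 1.23-fold (log2 fold change -0.31, SE 0.0743, adjusted p = 0.00214 by edgeR). Per length Mlkl was the highest of this group in both lines, at 22.9 and 18.5 CPM per kb, although its partner Ripk3 was not detected.

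**Figure D4:**
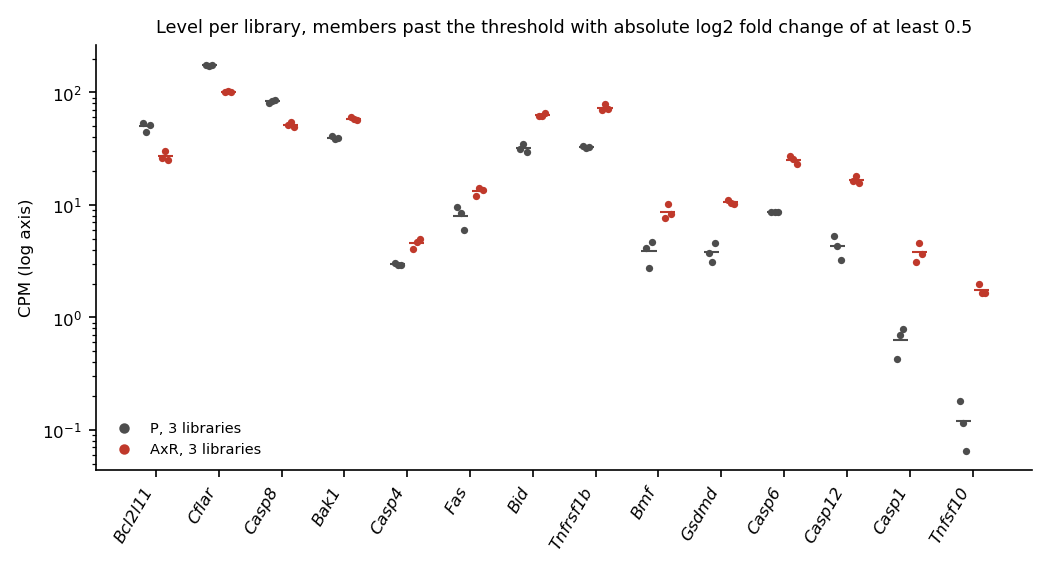
Level of 14 called genes with a log2 fold change of 0.5 or more in size, ordered by fold change, in CPM on a log axis, with a point per library (P grey, AxR red) and a line at the mean of 3. The lines do not overlap for any of these genes, which were picked by their difference, beside 68.3% of all genes tested. Bcl2l11, Cflar and Casp8 are lower in AxR cells, and Casp1 and Tnfsf10 are the lowest in P cells (means 0.634 and 0.121 CPM).

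Interferon is known to induce several of these genes, among them Casp1, Casp4, Tnfsf10 and Gsdmd, which were higher in AxR cells, and Casp8 and Mlkl, which were lower. In a list of 11 interferon response genes, 5 reached the filter level in every library of both lines, 5 in all libraries of AxR alone, and Mx1 was not tested. Among those that reached it in both lines, Stat2, Irf1, Irf7 and Irf9 were higher, with log2 fold changes from 1.12 for Irf9 to 3.12 for Irf7 (adjusted p = 5.47e-08 and 2.38e-09 by edgeR). Ifit1, Ifit3, Oas2 and Rsad2 reached the level in 0 P libraries and could only be tested as genes that differed. Isg15 also reached it in 2 P libraries. The 11 genes summed to between 71.2 and 73.2 CPM in P and between 221 and 246 CPM in AxR libraries. The part of this response in the changes of the cell death genes was not tested.

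Interferon acts on promoters through response elements, so the 250 bases before each RefSeq start site (GRCm38.p6) were searched on both strands for the core of the interferon-stimulated response element (GAAA, any 2 bases, GAAA) and for the gamma-activated site, TTCNNNGAA. Promoters were found for 35 of the 40 genes, including 16 of the 18 genes that were higher and all 6 that were lower. The gamma-activated letters were present in 4 of the 16 (Casp12, Fas, Tnfrsf1a and Tnfrsf1b), in 0 of the 6, and in 1 of the other 13 (Ripk1), beside 8.13% of 27025 genes. The response element core occurred in 1 of the 35, Tnfrsf1b, beside 3.46% of all genes and 5 of 8 genes of the interferon list that had a promoter. The windows below are shown because they hold every match among the 40 genes. Matched letters are in capitals, and no match overlapped one of the other motif. The Tnfrsf1a match, the Ripk1 matches and the Casp12 match nearer the RefSeq start lie within the GENCODE M21 span of their gene.
Casp12, chr9:5345364-5345392, plus strand: ctggttgactTTCTGGGAAaagagcagga
Casp12, chr9:5345430-5345458, plus strand: attggtatgtTTCTGGGAAggaaaggcac
Fas, chr19:34290556-34290584, plus strand: tcaaagcgatTTCTGGGAAgacctgaata
Tnfrsf1a, chr6:125349473-125349501, plus strand: gcttccTTCCGTGAAattgacaacaggct
Tnfrsf1b, chr4:145247033-145247061, minus strand: agcgcattcaTTCCCGGAAgagatgctgg
Tnfrsf1b, chr4:145246871-145246899, minus strand: ctagctcctggcctgagggTTTCGCTTTC
Ripk1, chr13:34002756-34002784, plus strand: agaagctggtTTCCCGGAAggggcggagg
Ripk1, chr13:34002845-34002873, plus strand: cgggcgggacttcaaacgTTCCCGGAAat

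Casp12 and Fas shared the same 9 letters, TTCTGGGAA, and Tnfrsf1b and Ripk1 shared TTCCCGGAA. Casp12 held its match at 93 and again at 27 bases before the RefSeq start, and Fas at 84 bases before its start. Ripk1, with 2 matches, did not pass the test, and Casp1, Casp4, Casp6, Bid, Bak1, Bmf and Tnfsf10 were higher without a match in this window. The stretches upstream of Casp1 and Casp12, up to the GENCODE start of each gene, are given because these neighbours had the largest rises of the caspases. The match of Casp12 in this stretch is in capitals, and Casp1 has none.
Casp12, chr9:5345226-5345429, plus strand: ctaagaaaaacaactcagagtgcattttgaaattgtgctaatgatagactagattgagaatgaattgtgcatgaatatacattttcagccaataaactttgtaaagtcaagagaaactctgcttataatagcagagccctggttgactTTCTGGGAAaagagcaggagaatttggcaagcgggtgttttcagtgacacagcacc
Casp1, chr9:5298267-5298516, plus strand: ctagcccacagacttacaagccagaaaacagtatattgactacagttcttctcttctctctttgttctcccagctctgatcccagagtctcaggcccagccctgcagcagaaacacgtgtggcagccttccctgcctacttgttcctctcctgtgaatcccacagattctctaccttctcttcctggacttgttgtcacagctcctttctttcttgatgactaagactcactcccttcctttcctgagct

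Position along the genome was compared with each value, because the medians of whole chromosomes differed between the lines. For 4 of the 24 called genes (Mcl1, Apaf1, Xiap and Fadd) the log2 fold change lay within 1 SE of the median for its own chromosome. For 3 of these 4 (Mcl1, Apaf1 and Xiap) it was slightly below that median. None of the 14 genes with a log2 fold change of 0.5 or more in size could change direction relative to the chromosome median. The medians of their chromosomes were at most 0.32 in size. The difference from the median was -0.40 for Casp8, -0.50 for Cflar, 1.22 for Casp6 and 2.80 for Casp1. No DNA was measured, so copy number and expression per copy cannot be told apart.

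Beyond the 40 genes, 67 further genes of these pathways were followed. Of these 48 were tested, 17 were higher, 19 were lower and 12 did not pass, with a median log2 fold change of -0.07. The share called was 75%, beside 63.5% of all genes tested (32.8% higher and 30.8% lower), and nothing is read from the counts of the short lists that follow. Among the tested genes of TNF and death receptor signalling 5 were higher and 8 lower of 16, and among other caspases and mitochondrial factors 5 were higher and 5 lower of 14. Of 9 other IAPs and regulators 4 were higher and 2 lower, of 4 other BCL2 relatives 2 were higher and 2 lower, and of 5 other genes of inflammatory cell death 1 was higher and 2 lower.

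Among these 67, 6 called genes had a log2 fold change of 1 or more in size and at least 1 CPM in the higher line. Zbp1, a nucleic acid sensor that can start necroptosis through Ripk3, had 1 count in each P library and 72, 103 and 74 counts in AxR libraries. The ratio of the summed counts was 83.2, with an exact 95% interval of 28.1 to 406 for counting error only. Zbp1 passed the count filter through AxR alone and could only be tested as a gene that differed. Xaf1, an antagonist of Xiap, was at 0.973, 0.808 and 0.913 CPM in P and 7.24, 7.4 and 6.03 CPM in AxR libraries (log2 fold change 2.93, adjusted p = 5.71e-09 by edgeR). Naip2, an inflammasome sensor of bacterial proteins, had 15, 14 and 9 counts in P and 124, 99 and 90 counts in AxR libraries, a log2 fold change of 3.04. It too reached the filter level in all libraries of AxR alone, and related Naip copies can share its reads. Bnip3, a hypoxia-induced BCL2 relative that acts in mitophagy, was at 15.6, 12.5 and 15.8 CPM in P and 55.2, 51.5 and 43.1 CPM in AxR libraries (log2 fold change 1.78, adjusted p = 8.33e-09 by edgeR). TNF signalling regulators split. Tnfaip3, which encodes the inhibitor A20, averaged 106 ± 10.9 CPM in P and 256 ± 14.8 CPM in AxR cells (SD, n = 3 each), with a log2 fold change of 1.27 (adjusted p = 1.85e-09 by edgeR). Traf1, an NF-kB target that binds TNF receptor 2 complexes, fell from 160 ± 6.18 to 73.9 ± 7.21 CPM (SD, n = 3 each), with a log2 fold change of -1.11 (adjusted p = 1.68e-09 by edgeR). Pycard, the inflammasome adaptor of Casp1, had a log2 fold change of -0.10, and Il18, a cytokine that Casp1 cleaves, one of 0.63, and neither passed (adjusted p = 0.837 and 0.0614 by edgeR). Nlrp3 and Il1b were too low to be tested.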

How the data were processed

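The authors sequenced 3 P and 3 AxR stranded poly(A) libraries of 4T1. They checked reads with FastQC 0.11.5, used STAR 2.6.0a for alignment to GRCm38 with GENCODE M16 gene models, and deposited estimated counts per gene from RSEM 1.3.1, before any filter or normalization. RSEM divides reads shared between similar genes by likelihood, so near-identical copies are uncertain. The strand setting of the counting is not given in the sources used here.

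Here the estimated counts were rounded and filterByExpr removed low genes. Upper quartile factors were applied, and edgeR 4.0.16 (R 4.3.3) fitted a robust quasi-likelihood model with line as its only term. The normalization follows the paper's methods. The test was tried on simulated data. The fit used all 13550 genes tested, which held 99.9% of counts. Symbols, positions and exon lengths came from GENCODE M21 on the same build, and 53274 of 53465 identifiers matched. Promoters came from RefSeq (GRCm38.p6). Exact permutation tests used log2(CPM + 0.5), and within-library ratios used CPM without a pseudocount. Values of 3 counts or fewer were treated as the floor.

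The genes and lists were chosen with earlier results of these data known. All 40 genes are accounted for. Values in full are given for called genes with a log2 fold change of 0.5 or more in size and for the highest gene per length of each role group, and further pathway genes are named from a log2 fold change of 1 or more in size and 1 CPM in the higher line. Bcl2l13, Birc3, Birc6, Pycard, Nlrp3, Il1b, Il18, the 4 further receptors and the genes of the other observations were named after their values were seen. The alternatives tried were DESeq2 1.42.0, TMM factors, library sizes alone, no low-count filter, at least 10 counts in every library, the replicate number as a block, each library left out, and a log2 fold change of 1 or more in size. The labels give no sequencing batch. Replicates of a line differed by more than sampling noise (chi-square over its degrees of freedom, 4.75 to 17.9), and none was merged.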

Additional observations from a re-analysis of the deposited data

How the results depend on the processing

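A required log2 fold change of 1 or more in size left 1083 genes higher and 640 lower in AxR cells over all genes, and 7 and 0 of the apoptosis genes (also 0 lower at an unadjusted p under 0.05 by edgeR, and with DESeq2), as a stricter criterion must. In all other settings between 15 and 18 apoptosis genes were higher and 5 or 6 lower. With each library left out these counts were 15 to 17 and 5 to 6. With the replicate number as a block they were 17 and 5 (4304 and 4023 over all genes), and Bad, near 0 throughout, changed sign to 0.0050. Same-numbered P and AxR libraries did not deviate together, with correlations of -0.02, -0.02 and -0.05 for replicates 1 to 3. Pairs of unlike number gave -0.02 to 0.04. Whether same-numbered libraries shared a preparation cannot be told from these values. The block cost the calls of Casp2 and Fadd. Across single genes and alternatives, 377 values stayed as called and in direction, 22 calls were lost, 1 was gained (Bcl2l2 without AxR replicate 2, adjusted p = 0.0375 by edgeR) and 6 values changed sign. The lost calls were all in Casp2, Apaf1, Tnfrsf1a and Fadd, and the sign changes in Bad and Bok. Leaving out each library, Bad ranged from -0.103 to 0.0870 and Bok from -0.0260 to 0.0974. All 49 comparisons of the ratios kept their direction. For pairs that did not overlap between the lines, leaving out 1 library could not have reversed it. Leaving out 1 library moved 3 of the 7 ratio differences by over 1.5 times: Bcl2 to Bax ranged from 0.10 to 0.23, Xiap to Diablo from 0.17 to 0.47 and Xiap to Casp9 from -0.26 to -0.03. Tnfsf10 and Casp1 had fewer than 10 counts in a P library and could not be tested under that filter. Depth limits what can be said of Bcl2a1b, Fasl, Ripk3, Hrk, Pmaip1 and Bik, which were not tested.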

Other observations

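Further genes of the mitochondrial route, chosen after their values were seen, also differed. Cycs, which encodes cytochrome c, was lower in AxR cells, at 136 ± 5.94 CPM in P and 89.6 ± 5.67 CPM in AxR cells (SD, n = 3 each), with a log2 fold change of -0.60 (adjusted p = 3.6e-07 by edgeR). Htra2, a mitochondrial protease that can antagonize IAPs, had a log2 fold change of -0.32 (adjusted p = 0.000534 by edgeR). Aifm1, a mitochondrial flavoprotein, and Aifm2, which protects from ferroptosis, were higher, with log2 fold changes of 1.00 and 0.98 (adjusted p = 1.77e-08 and 9.12e-08 by edgeR), on chromosomes with medians of 0.24 and 0.25. Birc5, which encodes the mitotic IAP survivin, was at 40.2, 50.9 and 46.5 CPM in P and 100, 84 and 80 CPM in AxR libraries, a log2 fold change of 0.94 (adjusted p = 8.56e-06 by edgeR). For each of these genes, picked because they differed, the AxR and P libraries did not overlap, beside 68.3% of all genes tested.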
